A study of Mus musculus with 20 samples.

Results

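The 7 vehicle pools are the blastocysts of the series that received no microRNA mimic, and they make up 7 of its 20 RNA-seq libraries. Each pool held 10 mouse embryos that had been injected as zygotes with nuclease-free water and then cultured in KSOM medium to the blastocyst stage. The zygotes were wild type and their strain is labelled F1 C57BL/6Jx129S1/SvlmJ. The other libraries, 8 Str - let7f pools and 5 2x Str - let7f pools, came from zygotes of the same strain and genotype that received a let-7f-5p mimic, dissolved in the same water, at 2 concentrations. They are used below only to look at the same genes in other embryos. The pools carry the replicate numbers 1, 2, 3, 5, 6, 7 and 8. No uninjected embryos are among the samples, so the values below are those of injected and cultured embryos. Neither the sex of the embryos, the injection day nor the females they came from is given in the labels. The spread between pools may thus be partly technical.

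A blastocyst has an outer epithelium, the trophectoderm, which pumps fluid into the blastocoel cavity and later forms placenta, and an inner cell mass. The inner cell mass splits into the epiblast, the source of the embryo proper, and the primitive endoderm, which lines the yolk sac. Cdx2 is a transcription factor of the trophectoderm, Krt8 a keratin of its cells, Nanog a pluripotency factor of the epiblast and Gata6 a transcription factor of the primitive endoderm. All of these markers had reads in every vehicle pool. Because each library was made from whole embryos, fewer cells of a type and less RNA per cell cannot be told apart.

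Depth ran from 3.30 to 46.6 M (megareads) per pool, with a median of 10.5 M. Replicates 8 and 6 were the shallowest, with 3.30 and 3.60 M, and replicates 5 and 3 the deepest, with 46.6 and 41.0 M. Levels are given as the authors' normalized counts. Of 16014 genes, 13360 had reads in all 7 pools and 18 had none in any. The table lists genes with at least 10 reads in at least 5 of the 20 libraries, so a gene with no vehicle reads is listed through mimic pools. The median gene had a mean normalized count of 149. A mean of at least 100 was reached by 9033 genes, at least 1000 by 2314 genes and at least 10000 by 76 genes. The 10 genes with the most reads held 6.88% of the reads, the highest 100 held 19.9% and the highest 1000 held 52.7%.

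Cytoskeletal, chaperone and mitochondrial genes headed the ranking. By mean normalized count the order was Lars2, Actb, Myh9, mt-Co1, Hsp90aa1, Hsp90ab1, Psap, Actg1, Hspa8, Ahnak, Krt8, mt-Nd5, Eef1a1, Or5b106 and Myh10. Actb, which encodes cytoplasmic beta-actin, averaged 81573 ± 14773 normalized counts (SD, n = 7). Myh9, the heavy chain of nonmuscle myosin IIA, averaged 68323 ± 19713. The mitochondrially encoded cytochrome oxidase subunit gene mt-Co1 averaged 65781 ± 5435, and the cytosolic chaperone gene Hsp90aa1 averaged 62273 ± 9101. Or5b106, at 33823 ± 4371, bears the name of an olfactory receptor. It matched no gene model of the annotation used here, so what its reads come from was not tested. Reads scale with transcript length, and levels of different genes are therefore compared per 1 kb of the longest annotated transcript. On that scale the order was mt-Co1, Actb, Lars2, mt-Atp6, Actg1, Krt18, Hsp90ab1, mt-Cytb, mt-Nd5, Eef1a1, Krt8, Psap, Hsp90aa1, H2ac7 and Hspa8. The first 3 were close together, with 42577 normalized counts per kb for mt-Co1, 42486 for Actb and 41276 for Lars2. Myh9, whose longest transcript measures 7.43 kb, took rank 26 per kb. With the median transcript length in place of the longest, Lars2 took rank 1 and Myh9 rank 2, so per-kb ranks of genes with many short transcript models are uncertain.

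The mean of Lars2, the gene for mitochondrial leucyl-tRNA synthetase, was drawn up by 1 pool. Its normalized count was lowest in replicate 1 (62136), had a median of 76966 and reached 535768 in replicate 5. Lars2 took 5.39% of the reads of replicate 5 and 0.637% to 1.94% of the reads of the other vehicle pools. The gene stands in the list of abundant structured or rRNA-repeat loci, and whether its reads came from the synthetase mRNA or from repeat sequence was not tested.

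**Figure D1:**
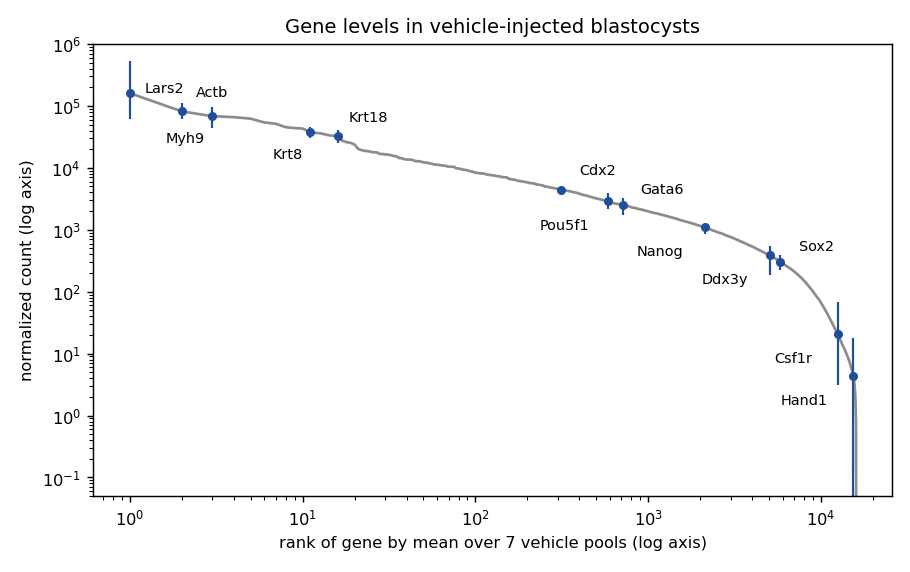
Genes in order of their mean normalized count over the 7 vehicle pools (x axis, rank, log scale) against that mean (y axis, log scale). Points mark named genes and vertical bars run from the lowest to the highest pool; Krt8 and Krt18 sit among the top 20, Cdx2 at rank 315, Nanog at rank 2124 and Hand1, with 0 in 2 pools, near the bottom.

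Of the trophectoderm genes, the keratins Krt18 and Krt8 ranked highest per kb. Krt8 ran from 30402 normalized counts in replicate 7 over a median of 38153 to 45032 in replicate 8. Its partner Krt18 had the same extremes, 24945 in replicate 7 and 40582 in replicate 8. Per kb Krt18 held rank 6 and Krt8 rank 11 of 15265 genes with a length. Cdx2 varied little, between 3859 in replicate 7 and 4806 in replicate 5, with a mean of 4420 ± 364 (SD, n = 7) and per-kb rank 219. Klf5, a transcription factor of trophectoderm and pluripotent cells, stayed between 16372 and 19547. Gata3, a trophectoderm transcription factor, ran from 6707 to 8692, and Tead4, which acts upstream of Cdx2, from 2211 to 2574. Other regulators of the lineage spread further. Eomes, needed for trophoblast development, ran from 1584 in replicate 7 to 4103 in replicate 1. Elf5 ran from 394 in replicate 7 to 944 in replicate 2. Gata2 stood at 1377 in replicate 7 and at 6437 in replicate 2, with 3098 in the next pool. Hand1, a transcription factor of later trophoblast giant cells, had 0 reads in replicates 2 and 6, which allows up to 3.57 and 8.03 normalized counts (3 reads, counting error only). Its highest value was 18.2, in replicate 7.

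Several epiblast and pluripotency genes stayed within a narrow range. Nanog had 856 normalized counts in replicate 3, a median of 1160 and 1285 in replicate 8, and a mean of 1093 ± 173 (SD, n = 7). Per kb Nanog stood at rank 1192 and Pou5f1, which encodes the pluripotency factor OCT4, at rank 201. Pou5f1 ran from 2159 in replicate 1 to 3890 in replicate 8. Fbxo15, a target of OCT4, was wider still, from 1642 in replicate 2 to 3494 in replicate 6. Sall4, a zinc finger factor of pluripotent cells, lay between 5240 and 6044, and Zfp42 between 1407 and 1781. Tfcp2l1, a naive pluripotency factor that is also made outside the epiblast, ran from 8694 to 10868. Sox2, a partner of OCT4, ran from 225 to 394, and Fgf4, the epiblast signal that instructs primitive endoderm, from 251 to 357.

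Primitive endoderm genes had uneven spreads between pools. Gata6 had 1753 normalized counts in replicate 1, a median of 2412 and 3315 in replicate 6, with replicate 8 close behind at 3279. Its mean was 2512 ± 629 (SD, n = 7) and its per-kb rank 835. Pdgfra, the receptor that marks the lineage, ran from 1302 in replicate 2 to 2655 in replicate 3. Gata4 lay between 835 and 1310, and Sox17 between 341 and 497. Hnf4a, a transcription factor of differentiated endoderm, was uneven, with 71.5 in replicate 5 and 71.6 in replicate 3 but 472 in replicate 7 and 776 in replicate 2. The basement membrane genes Lama1, Lamc1 and Lamb1, which encode laminin chains, averaged 16467 ± 2456, 13709 ± 2638 and 9727 ± 1493. Lrp2, which encodes the endocytic receptor megalin and is made by both trophectoderm and primitive endoderm, ran from 17276 in replicate 2 to 42654 in replicate 7. The highest pool thus differed among Gata6, Pdgfra, Hnf4a and Lrp2.

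**Figure D2:**
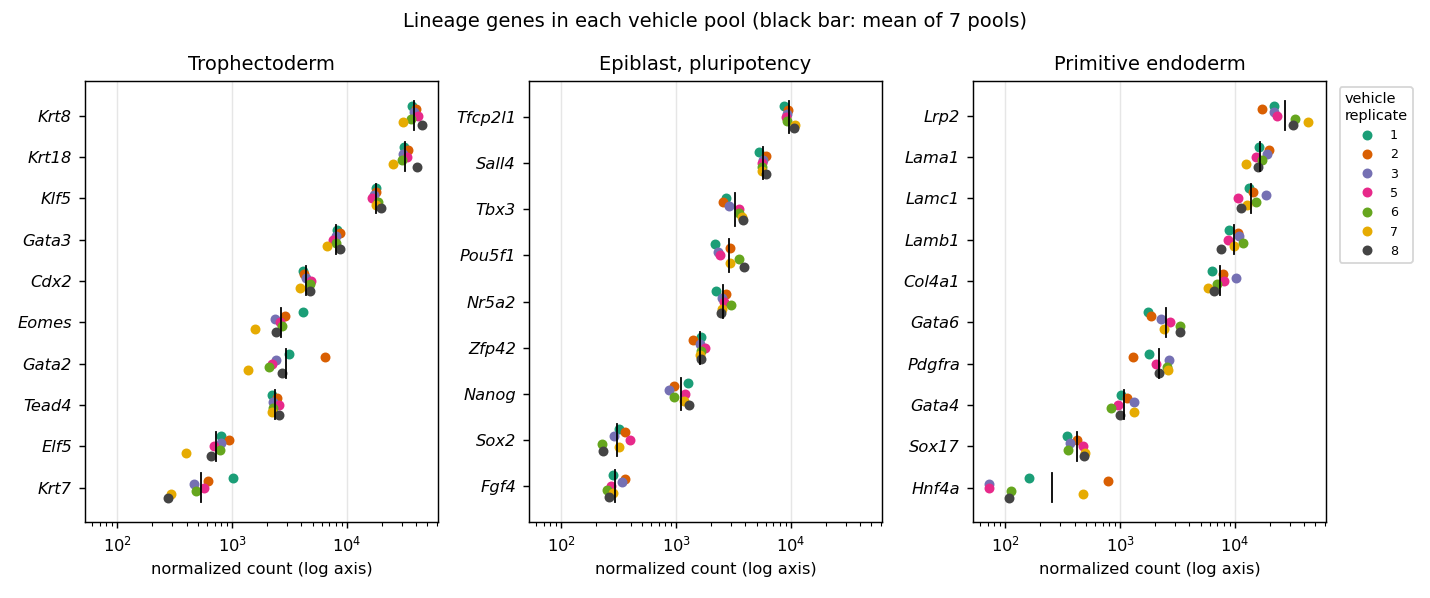
Normalized counts (log axis) of trophectoderm, epiblast and primitive endoderm genes in each of the 7 vehicle pools; colours give the replicate and black bars the mean. Cdx2, Tead4, Sall4 and Zfp42 lie in tight groups, while Gata2 in replicate 2 and Hnf4a in replicates 2 and 7 stand away from the other pools, and replicate 7 is lowest for Krt8, Krt18, Eomes, Gata2 and Elf5.

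Whether marker levels moved together was tested over the 7 pools. Among the 6 pairs of Cdx2, Nanog, Gata6 and Krt8 the strongest Pearson correlation was 0.78, between Cdx2 and Krt8. It did not pass (exact permutation p = 0.0306, adjusted p = 0.122 over 12 pairs, two-sided; Spearman rho 0.71, exact permutation p = 0.0881, adjusted p = 0.352), and without the 2 pools farthest from the median of Cdx2 it was 0.46. Cdx2 and Gata6 had r = 0.69 (exact permutation p = 0.098, adjusted p = 0.196; rho 0.64, exact permutation p = 0.139), and r was 0.99 without the 2 farthest pools. Gata6 and Krt8 had r = 0.25, and the 3 pairs with Nanog had r of 0.02 to 0.14.

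Markers of blood, immune, cumulus and granulosa cells, which could adhere to an embryo, were low. Of 14 blood and immune genes 5 were among the genes listed, and their summed level was 5.28 to 12.9 RPM (reads scaled to the library's total). Of 13 cumulus and granulosa genes 4 were listed, led by Star and Inhbb, with a sum of 6.97 to 18.8 RPM. The remaining genes of these groups were not analysed here. The blood and cumulus sums were both highest in replicate 7. The sums of the fibroblast and sperm lists were higher. Of 12 fibroblast and stroma genes 7 were listed, with 565 RPM in replicate 6 and 957 RPM in replicate 7. Fn1 and Vim led them, with means of 6071 and 482 normalized counts. Of 13 sperm and testis genes 2 were listed, with 150 RPM in replicate 8 and 292 RPM in replicate 2. These were Odf2, with a mean of 2095 normalized counts, and Acrv1, with 14.7, so the sperm sum was mostly Odf2. Whether these reads came from such cells was not tested. Of 24 oocyte and maternal genes 15 were listed, and Khdc3, a subunit of the subcortical maternal complex, averaged 5193 ± 971 normalized counts. The summed level of these 15 was 522 RPM in replicate 2 and 1016 RPM in replicate 7.

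For each of the 9033 genes with a mean of at least 100, the variance of log2(normalized count + 1) between the 7 pools was divided by the variance that a robust trend gives for genes of the same level. This quotient, the variance over trend, is 1 for a typical gene. Spread fell with level. The median SD between pools was 0.49 on the log2 scale for genes with a mean of 100 to 300 (3154 genes), 0.33 from 300 to 1000 (3565 genes), 0.24 from 1000 to 3000 (1758 genes) and 0.19 from 3000 upwards (556 genes). As coefficients of variation of the normalized counts the medians were 33.2% in the lowest of these classes and 12.9% in the highest. The highest pool exceeded the lowest by a median of 2.62 times in the lowest class and 1.44 times in the highest. Counting error is the part of this spread that the number of reads alone gives, and for the median gene it was 4.82% of the variance.

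No single gene stood clear of the trend after adjustment. With limma, 0 of 9033 genes (0%) varied more than the trend at an adjusted p under 0.05 and 0 (0%) varied less. At an unadjusted p under 0.05 there were 419 genes (4.64%) on the upper side and 474 (5.25%) on the lower side. edgeR's quasi-likelihood dispersions gave 0 calls on either side, and DESeq2 marked 65 genes as dispersion outliers, among them Lars2, Hmgcs1, Klf11, Ttn, Map3k5 and mt-Co3. With 7 pools the test is weak, since a first call would have needed a variance over trend of 277. The order of genes below, which leaves out predicted models, clones and pseudogenes, is therefore a description, and a variance over trend above 1 was common (4634 genes, 51.3%).

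**Figure D3:**
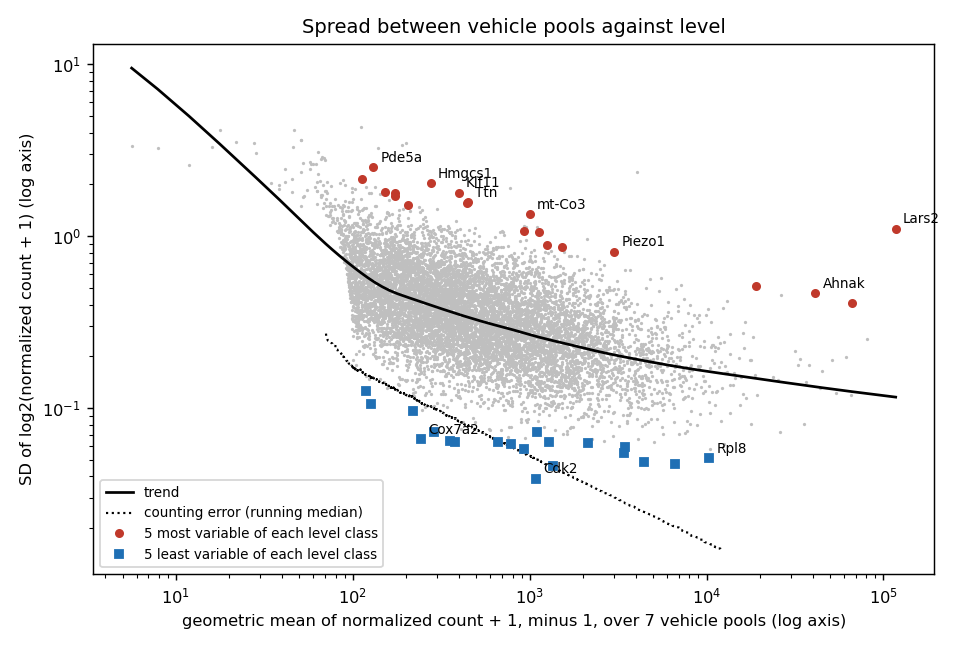
Each grey point is a gene, with its level in the vehicle pools (x axis, geometric mean, log scale) and the SD of its log2 values between the 7 pools (y axis, log scale). The solid line is the trend, the dotted line the running median of counting error, and coloured marks are the 5 most and 5 least variable genes of each level class, leaving out predicted models, clones and pseudogenes. Lars2 lies far above the trend at the right. The SDs of Cdk2 and Cox7a2 are smaller than counting error alone gives for these genes.

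The widest spread among genes with means from 3000 upwards was that of Lars2, with a variance over trend of 91.0 (limma adjusted p = 0.36) and of 22.7 without replicate 5. Piezo1, which encodes a mechanically gated ion channel, followed with 15.8, and with 8.83 without replicate 8. It had 7915 normalized counts in replicate 8, 5698 in replicate 2 and 1965 to 2528 in the other pools. Ahnak, the gene of a very large scaffold protein, had 12.2 (6.2 without replicate 2) and ran from 26349 in replicate 7 to 71705 in replicate 2. Myh9 had 10.9 and ran from 44080 in replicate 7 to 95957 in replicate 2. Ahnak and Myh9 thus both had their lowest value in replicate 7 and their highest in replicate 2.

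Between means of 1000 and 3000 the widest were mt-Co3, Pdzd2, Myo9a, Scrib and Ypel2. mt-Co3, a mitochondrially encoded oxidase subunit, had 246 normalized counts in replicate 6, 280 in replicate 8 and 1178 to 2019 in the other pools, for a variance over trend of 25.2. Replicates 6 and 8 were the shallowest pools, and within the 5 pools of over 5 M reads the value was 2.13. A nuclear copy of this gene, Gm28437, has a transcript identical to that of mt-Co3 at all 783 bases compared, so reads can be given to either. Added together, the 2 genes had a mean of 4903 ± 701 normalized counts (SD, n = 7) and a variance over trend of 1.16. Gm28437 alone had a variance over trend of 2.78 and ran from 2643 to 4773 normalized counts, above mt-Co3 in every pool. The copy therefore makes up most of the sum, and whether reads moved between the 2 genes was not tested. For mt-Co2, another oxidase subunit gene, the copy Gm28661 is identical at 681 of 681 bases. Alone mt-Co2 had a variance over trend of 2.43 and the copy 9.19, and their sum had 4.85, above that of mt-Co2 alone. Atp6-ps, a pseudogene by its name and singled out after its values were seen, had the largest variance over trend of all, 151 (limma adjusted p = 0.215) and 44.0 without replicate 3, with 149.8 in replicate 3 and 20499 in replicate 8. mt-Atp6 alone had 12.1, and its sum with Atp6-ps had 3.21. The sequences of mt-Atp6 and Atp6-ps were not compared. Scrib, an epithelial polarity gene, stood at 5317 in replicate 8 and at 896 to 1829 elsewhere. Its variance over trend was 13.2, and 2.84 without replicate 8.

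Hmgcs1, Klf11, Ttn, Map3k5 and Smad3 led the genes with means of 300 to 1000. Klf11, a transcription factor linked to TGF-beta signalling, had 2533 normalized counts in replicate 6 and 2010 in replicate 8, the shallowest pools, and 131 to 339 in the remaining pools. Its variance over trend was 25.9, and 2.33 within the 5 deeper pools. Smad3, which carries TGF-beta signals to the nucleus, showed another split, with 942 in replicate 7, 772 in replicate 3 and 52.4 to 273 elsewhere, and its variance over trend of 14.7 was 8.43 without replicate 7 and 9.31 without replicate 3. Within the 5 deeper pools the variance over trend of Smad3 was 24.9. Map3k5, a stress-activated kinase gene, ran from 102 in replicate 8 to 1493 in replicate 2 (variance over trend 21.1, and 13.0 within the deeper pools). Ttn, the titin gene, whose product is best known from muscle, had 3440 in replicate 8, 1201 in replicate 1 and 191 to 311 elsewhere. Its variance over trend fell to 7.65 without replicate 8, against 21.7 with it.

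At means of 100 to 300 the leading genes were Pde5a, Txnip, Pkp3, Tmcc3 and Iqschfp. Pde5a, a cyclic GMP phosphodiesterase gene, fell into low and high pools, with 10.7 in replicate 6, 13.1 in replicate 2 and 66.6 in replicate 7, and 377 to 586 in the others. Txnip, a glucose-responsive thioredoxin inhibitor, ran from 16.6 in replicate 2 to 812 in replicate 1, and its variance over trend was 6.07 without replicate 2 and 8.14 without replicate 1. Iqschfp had 19.9 in replicate 7 and 191 to 490 elsewhere, and its variance over trend of 11.9 was 1.75 without that pool. Within the 5 deeper pools the variance over trend of Txnip was 24.2, against 13.6 over all 7.

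The steadiest genes were of mixed kinds, and none passed on the lower side after adjustment. They included a cell cycle kinase, respiratory chain subunits and RNA-binding protein genes, but also Cmtm4, Slc35f5, Tmed7, Golga5, Tpst2 and Zxdc. Cdk2, the S-phase cyclin-dependent kinase gene, stayed between 1050 and 1124 normalized counts in all 7 pools, with a coefficient of variation of 2.69% and a variance over trend of 0.0219. Cox7a2 and Ndufs8, nuclear-encoded subunits of the respiratory chain, stayed between 225 and 256 and between 268 and 316. In the class from 3000 upwards Hnrnpa2b1, an RNA-binding protein gene, lay between 6229 and 6913. Rpl8, a ribosomal protein gene, lay between 9984 and 10964, Lrrc59 between 4248 and 4667 and the ubiquitin ligase gene Rlim between 3273 and 3673. The citrate synthase gene Cs ran from 2012 to 2282, and Oxa1l, whose product inserts proteins into the inner mitochondrial membrane, from 635 to 719. On the log2 scale the SD between pools was 0.04 for Cdk2 and 0.07 for Cox7a2, and counting error alone gives an SD of 0.05 for Cdk2 and 0.11 for Cox7a2. Both SDs lay below counting error, so the rank of these genes as steadiest cannot be told apart from it.

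Genes commonly used as references for qPCR were spread like genes at large. Over 23 reference genes the median variance over trend was 0.976, near the 1.03 of all genes. Actb had 4.32 (2.42 without replicate 8) and ran from 61918 in replicate 7 to 109645 in replicate 8, and Gapdh had 1.11 with 7961 to 10964. Hprt1 had 2.65 with 963 to 2291, and 1.39 without replicate 2. Ppia had 0.456 with 5067 to 6440, Eef1a1 0.357 with 33102 to 38087, and H2az1 0.242 with 2186 to 2719.

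Cholesterol synthesis was among the gene groups with the highest median variance over trend, and which group came first depended on the pools used. Sterol-regulated genes are switched on by SREBP2, the product of Srebf2, when cell cholesterol is low, and Insig1 encodes the protein that holds SREBP2 back. Promoters of such genes often carry a sterol element and boxes for the factor NF-Y. Promoter windows of its 2 most variable members, from 250 bases before to 50 bases after the annotated start, are printed from RefSeq on GRCm38.p6, with TCACCCCAC and CCAAT (either strand) in capitals. The Hmgcs1 window lies at chr13:119690101-119690400 on the plus strand, and that of Cyp51 at chr5:4104648-4104947 on the minus strand.
Hmgcs1: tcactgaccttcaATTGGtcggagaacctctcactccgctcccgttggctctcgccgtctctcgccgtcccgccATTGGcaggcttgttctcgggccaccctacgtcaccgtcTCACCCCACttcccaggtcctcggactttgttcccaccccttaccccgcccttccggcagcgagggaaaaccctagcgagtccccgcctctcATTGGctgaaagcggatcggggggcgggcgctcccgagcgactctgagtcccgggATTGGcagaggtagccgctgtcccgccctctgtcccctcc
Cyp51: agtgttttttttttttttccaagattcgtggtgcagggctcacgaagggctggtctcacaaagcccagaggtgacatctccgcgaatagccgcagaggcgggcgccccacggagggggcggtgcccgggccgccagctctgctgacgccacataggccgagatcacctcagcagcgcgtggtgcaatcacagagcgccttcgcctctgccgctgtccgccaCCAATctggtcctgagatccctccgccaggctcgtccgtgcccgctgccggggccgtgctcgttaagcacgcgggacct
The Hmgcs1 window holds 1 TCACCCCAC and 4 CCAAT, and the Cyp51 window 0 and 1. Only exact matches were counted, so a 0 does not show that other forms of the sterol element are absent. Both strings were searched on both strands, as was CACCCCAC, which is the first string without its first base, and in the windows printed TCACCCCAC overlaps no CCAAT. In 17 windows of 14 of the 22 genes, TCACCCCAC was found in 1, CACCCCAC in 2 and CCAAT in 13. Among all 32851 windows of this length the shares were 0.551%, 2.87% and 37.4%. The strings were chosen after the spread of these genes had been seen, and a match is a description only.

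Of 22 cholesterol genes 20 reached a mean of 100. Their median variance over trend was 2.29, against 1.03 for all genes, 15 of 20 were above 1 (51.3% of all genes), and 5 of 20 had an unadjusted p under 0.05 on the upper side (4.64% of all genes). Hmgcs1, the cytosolic enzyme at the start of the pathway, had 15.6 normalized counts in replicate 7, 114 in replicate 8, a median of 460 and 981 in replicate 2. Its variance over trend was 26.2, and 9.92 without replicate 7. Cyp51, a sterol demethylase gene, ran from 42.4 in replicate 7 to 823 in replicate 2 and had 10.9, and 6.15 without replicate 7. Srebf2 ran from 966 in replicate 7 to 3281 in replicate 2, and Fdps, which makes farnesyl diphosphate, from 471 in replicate 7 to 1594 in replicate 2. Replicate 7 was the lowest pool for 14 of the 20 genes, where it was the lowest for 17.0% of all genes, and replicate 2 the highest for 12, where it was the highest for 15.7% of all genes. Summed over the group, the level was 783 RPM in replicate 7, a median of 1309 and 1952 in replicate 2. Over all 7 pools the next group was that of oocyte and maternal genes, with a median of 2.20 over 5 genes. Without replicate 7 the cholesterol median was 2.12, and within the 5 deeper pools it was 3.25, where that of oocyte genes was 3.43. Without replicate 2 it was 1.79, below the 2.63 of Y-linked, the 2.20 of oocyte and the 1.92 of fibroblast genes, and without replicate 3 it was 2.52, below the 2.75 of oocyte genes. Without replicate 5 it was 2.07, below the 2.33 of Y-linked and the 2.25 of oocyte genes.

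Y-linked genes report the male embryos of a pool, since only these carry the chromosome, and X-linked genes subject to dosage compensation report sex less directly. Of 9 Y-linked genes 6 were listed and Ddx3y, Eif2s3y, Kdm5d and Uty reached a mean of 100. Ddx3y, an RNA helicase gene, ran from 185 normalized counts in replicate 7 over a median of 380 to 547 in replicate 3. Eif2s3y, a translation factor gene, ran from 77.9 in replicate 7 to 351 in replicate 8. Uty ran from 84.8 in replicate 7 to 523 in replicate 2. Kdm5d, a histone demethylase gene, ran from 185 in replicate 7, next to 188 in replicate 5, to 305 in replicate 6. Replicate 7 was thus lowest for all 4 genes, and their median variance over trend of 2.13 was 0.943 without it. Ddx3y and Eif2s3y correlated across pools with r = 0.96 (exact permutation p = 0.00119, adjusted p = 0.0143 over 12 pairs, two-sided) and rho = 0.96 (exact permutation p = 0.00278, adjusted p = 0.0333). Without the 2 pools farthest from the median of Ddx3y, r was 0.98. The adjusted p was 0.05 to 0.108 in 4 of the 7 fits that left out 1 pool. None of the other 5 Y-linked pairs passed, the nearest being Kdm5d with Uty at r = 0.76 (exact permutation p = 0.0258, adjusted p = 0.122; rho 0.86, exact permutation p = 0.0238, adjusted p = 0.143).

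Correlations of Y-linked genes with their X-linked partners were negative and passed no test. Ddx3x had its highest value, 5445 normalized counts, in replicate 7, and so did Eif2s3x with 3014 and Kdm6a, the partner of Uty, with 1182. Kdm5c was highest in replicate 1, with 2632, and had 2346 in replicate 7. Across pools r was -0.38 for Ddx3y with Ddx3x, -0.79 for Eif2s3y with Eif2s3x, -0.66 for Kdm5d with Kdm5c and -0.63 for Uty with Kdm6a. None of these 4 pairs, chosen after the values were seen, passed (exact permutation test, adjusted p = 0.144 to 0.427 over 4 pairs). Without the 2 pools farthest from the median of the Y-linked gene, r was 0.0077 for Ddx3y, 0.22 for Eif2s3y, -0.70 for Kdm5d and -0.83 for Uty, so the first 2 of these rest on those pools. Of 17 X-linked genes of the X dosage group, replicate 7 was highest for 8 (14.2% of all genes) and replicate 8 lowest for 9 (19.4% of all genes). The group's summed level was 3723 RPM in replicate 8, a median of 4743 and 5595 in replicate 7.

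The 29 trophectoderm genes kept had a median variance over trend of 1.73, with 21 above 1 (51.3% of all genes) and 3 with an unadjusted p under 0.05 on the upper side (4.64% of all genes). Replicate 7 was the lowest pool for 15 of them (17.0% of all genes), and without it the median was 1.16. Gata2 had 10.5, and 3.55 without replicate 2. The median was 1.90 for 23 primitive endoderm genes, 18 of them above 1, led by Lrp2 with 10.1 and Hnf4a with 7.93 (3.50 without replicate 2). It was 0.799 for 23 epiblast and pluripotency genes, 10 of them above 1. Within that group Sall4 had 0.155 and Zfp42 0.182, while Fbxo15 had 4.79 and Pou5f1 2.42, the last with 1.15 in pools of over 5 M reads. Dppa3, a maternal factor also made by pluripotent cells, had 7.66 (3.46 without replicate 2) and ran from 631 in replicate 2 to 2639 in replicate 7. Lrp2 and Dab2 stand in both the trophectoderm and the primitive endoderm group. Of the marker genes, Gata6 had 2.95 (1.74 in pools of over 5 M reads), Krt8 1.73 (0.85 without replicate 7), Nanog 0.799 and Cdx2 0.406. In replicate 7, the pool lowest in many sterol, Y-linked and trophectoderm genes, the summed level was 12.9 RPM for blood genes, 18.8 RPM for cumulus genes and 1016 RPM for oocyte genes. Each was the highest of the 7 pools, and their part in the low values was not tested. Dppa3, at 2639 normalized counts in this pool, stands in both the oocyte and the epiblast group. Csf1r, a receptor of macrophages and trophoblast, was also highest there, with 68.4 normalized counts. The share of single genes in these sums was not worked out, so a high sum may rest on a single gene.

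**Figure D4:**
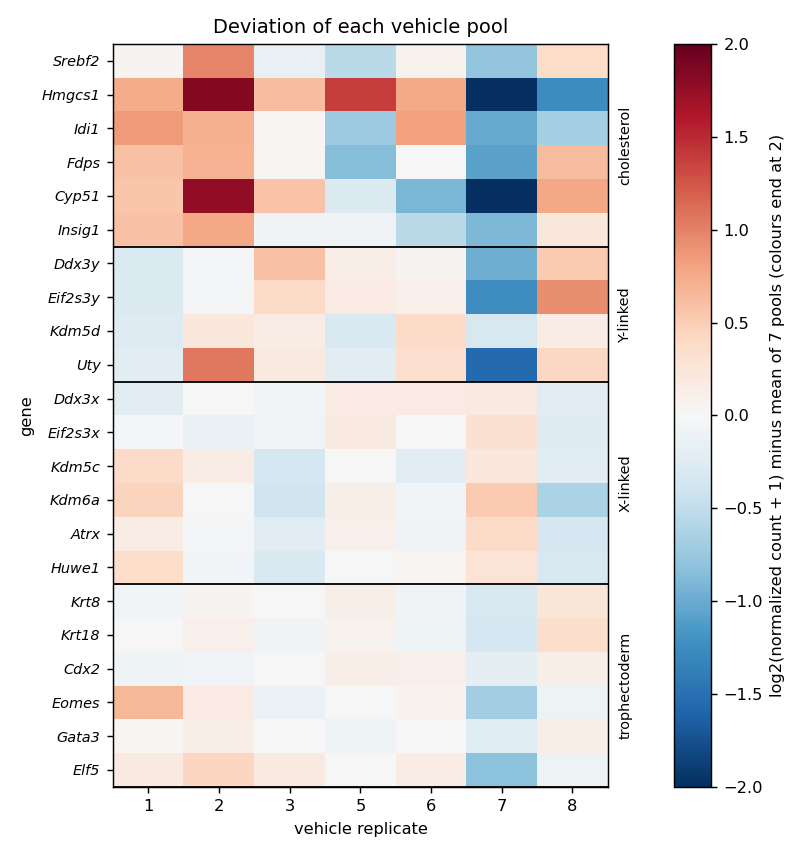
Deviation of each vehicle pool (columns) from the mean of the 7 pools, as log2(normalized count + 1), for cholesterol, Y-linked, X-linked and trophectoderm genes (rows); red is above and blue below the mean, and colours end at 2. Replicate 7 is blue for all 6 cholesterol and all 4 Y-linked genes shown, and replicate 2 is red for the 6 cholesterol genes.

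Another pool stood apart for histones. Replication-dependent histone mRNAs end in a stem-loop instead of a poly(A) tail and are made in S phase. Of 39 kept, 31 had their highest value in replicate 5, where 9.47% of all genes had theirs. The summed level was 7717 RPM in replicate 5 and 5286 to 5900 in the other pools. H2ac7 had 11508 normalized counts in replicate 5 and 7219 to 8148 elsewhere, and H2ac18 had 10810 in replicate 5 and 6390 to 9342 elsewhere. The group's median variance over trend was 1.26, and 0.622 without replicate 5. Replicate 5 was also the deepest pool and the one with the largest Lars2 share, and whether these go together was not tested.

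Groups of ribosomal, proteasome and mitosis genes had medians under the 1.03 of all genes, of which 51.3% were above 1. The median variance over trend was 0.746 for 75 cytosolic ribosomal protein genes, with 29 above 1, and 0.679 for 32 proteasome genes, with 9 above 1. For 18 mitosis genes it was 0.569, with 6 above 1. Kif11, a motor of the spindle, had 0.186 and Cenpa, a centromeric histone gene, 0.205. Mki67, which is made in cycling cells, had 3.18 and ran from 6057 to 9982 normalized counts. The kinesin gene Kif20a had 3.60, with 3782 in replicate 8 and 1570 to 2099 elsewhere, and 0.613 without replicate 8. Replicate 7 was highest for 14 of the 32 proteasome genes (14.2% of all genes), and replicate 2 lowest for 13 (16.6% of all genes). Of the 75 ribosomal genes, 29 were lowest in replicate 8 (19.4% of all genes) and 25 highest in replicate 5 (9.47% of all genes). Without replicate 8 the ribosomal median was 0.596, with 18 above 1. Glycolysis genes had a median of 1.24 over 17 genes, from Pgam1 with 0.122 to Pfkp with 9.40. p53 targets had 1.26 over 20 genes, led by Trp53inp1 with 8.14, Zmat3 with 7.19 and the cell death gene Bbc3 with 6.13. Each of these leaned on a pool, with 1.64 for Trp53inp1 without replicate 8, 3.8 for Zmat3 without replicate 1 and 3.25 for Bbc3 without replicate 8. The 15 imprinted genes had 1.94, with 10 above 1, and ranged from Igf2r with 0.171 to Zdbf2 with 6.12 (3.08 without replicate 7). The imprinted median was 1.2 without replicate 8 and 1.22 in pools of over 5 M reads. Interferon response genes were low, with 11 of 20 listed, none at a mean of 100 and a summed level of 29.8 to 58.0 RPM. The 10 mitochondrially encoded genes took 1.61% of the reads in replicate 8 and up to 2.15% in replicate 1. These shares leave out the copies Gm28437, Gm28661 and Atp6-ps. Atp6-ps had 20499 normalized counts in replicate 8 and 2388 in replicate 1, while Gm28661 had 3714 and 9407. Whether the order of pools holds with the copies added was not tested.

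Across the whole profile, pairs of vehicle pools correlated with r of 0.860 to 0.937 on log2 values, with a median of 0.899 over 21 pairs. These are correlations across genes, which are not independent. The first principal component held 25.9% of the variance and set replicate 8 apart from the rest, the second 21.4% and the third 18.0%. In 1046 genes (11.6%) a single pool lay far from the others on unlogged normalized counts, by a gap larger than Dixon's 95% critical share of the gene's range, which chance alone passes in about 1 of 20 groups. Replicate 8 was that pool on the high side for 331 genes and on the low side for 32. Replicate 6 followed with 179 and 10, and replicate 2 with 141 and 17. Unlogged values stretch the upper end of a gene's range, so the sides cannot be weighed on this scale. On log2(normalized count + 1) the total was 644 genes (7.13%), 337 with the distant pool highest and 307 with it lowest, and replicate 8 took 130 of these on the high side and 112 on the low side. The shallowest pools lay farthest from the gene means, with an SD of the deviations of 0.60 in replicate 8, 0.53 in replicate 6, 0.52 in replicate 2, 0.47 in replicate 7, 0.43 in replicate 1, 0.42 in replicate 3 and 0.37 in replicate 5. Long genes (transcripts over 4.49 kb) deviated from short genes (under 2.84 kb) by -0.11 on the log2 scale in replicate 5 and by 0.08 in replicate 2, the extremes of the 7 pools.

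**Figure D5:**
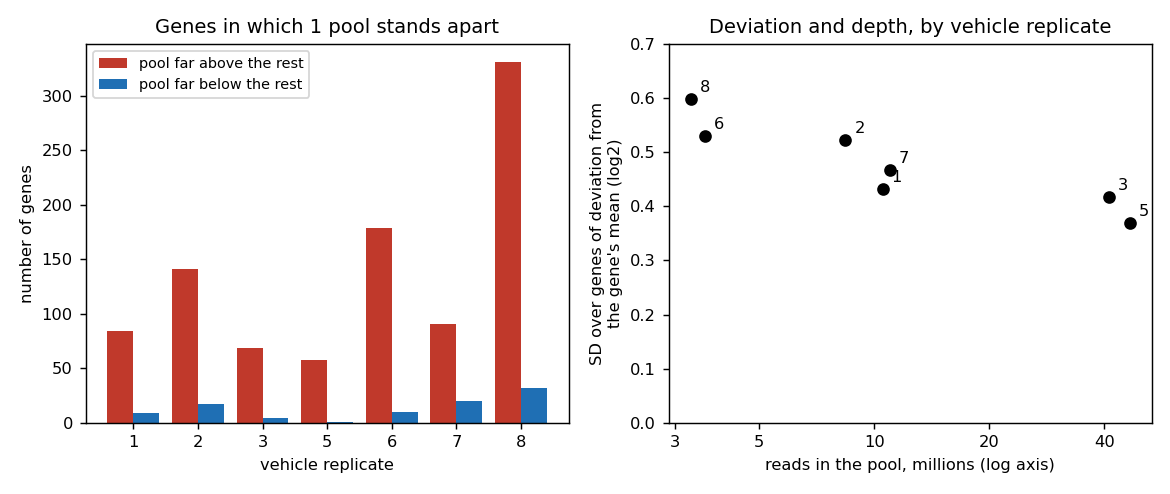
Left, number of genes in which a vehicle pool lies far above (red) or far below (blue) the other 6 on unlogged normalized counts, by replicate. Right, SD over 9033 genes of the deviation from the gene's mean (y axis, log2) against reads in the pool (x axis, M, log scale); replicate 8, the shallowest at 3.30 M reads, has the largest value, 0.60, and replicate 5, the deepest, the smallest, 0.37.

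Genes that varied among vehicle pools also tended to vary within the other groups, each fitted alone. Over 8533 genes kept in all 3 groups, the variance over trend in vehicle pools correlated with that in Str - let7f pools at a Spearman rho of 0.52 and with that in 2x Str - let7f pools at 0.43, given as a description across genes. Of the 200 most variable genes in vehicle pools, 61 (30.5%) were among the 200 most variable in Str - let7f pools and 50 (25%) among those in 2x Str - let7f pools. Lists of 200 are 2.34% of these genes. Lars2 varied more than 99.9% of genes among Str - let7f pools and more than 99.8% among 2x Str - let7f pools. Ttn varied more than 99.2% and 99.7%, Map3k5 more than 99.2% and 99.5%, and Dppa3 more than 98.6% and 99.2%. Hmgcs1 varied more than 98.8% and 92.1% of genes in those groups. Other genes had unlike values in the 3 groups. Klf11 varied more than 99.9% of genes in vehicle pools, 55.7% in Str - let7f pools and 83.3% in 2x Str - let7f pools, and these differences between groups were not tested. Of the steady genes, Hnrnpa2b1 varied more than 0.548% of genes in Str - let7f pools and 4.9% in 2x Str - let7f pools, and Rlim more than 11.9% and 0.4%. Cdk2 varied more than 1.11% and 36.0%, but Ndufs8 varied more than 27.4% and 60.7%, Slc35f5 more than 64.2% and 48.0%, Bloc1s6 more than 54.7% and 48.7%, and Zxdc more than 53.8% and 29.6%, so that the last 4 of these were not among the steadiest genes of the other groups. Sall4 varied more than 2.18% of genes in vehicle pools and 72.5% in Str - let7f pools.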

How the data were processed

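Pools of 10 blastocysts were sequenced as rRNA-depleted total RNA with a stranded kit, as the labels' protocols state. Tools credited to the submitters' processing notes are kallisto 0.50.1 and Trimmomatic 0.39, with MultiQC 1.28, FastQC 0.12.1 and DESeq2 1.48.2, on GRCm39. The annotation and the step from transcripts to genes are not given in the sources used here. The deposited signal values are the authors' normalized counts per gene. They move in equal steps within a library, and a step was taken as 1 read. Measured in steps, 100% of a vehicle library's values came out whole (tolerance 0.01), so reads could be recovered. All 16014 genes reach 10 reads in 5 or more libraries, and an entry with no gene name (0.0296% to 0.0465% of reads) was left out. Reads were not collapsed to molecules, and floors cover counting error only. Levels were not compared between injection groups; only the spread within each mimic group was set beside that of the vehicle pools.

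Levels are means over 7 pools. Lengths are those of the longest GENCODE M21 transcript, matched by symbol for 14920 genes and by synonym for 346, with 748 unmatched, and that build may differ from the authors'. For 9033 genes with a mean of at least 100, the variance of log2(normalized count + 1) was set over a robust trend on level with limma 3.58.1 (R 4.3.3), giving an F test with 6 and 4.83 degrees of freedom, Benjamini-Hochberg adjusted over all genes, called at 0.05. The procedure was tested on simulated data, and the outcome is not reported here. edgeR 4.0.16 quasi-likelihood dispersions and DESeq2 1.42.0 dispersion outliers of the recovered reads were alternatives, beside other filters, pseudocounts, scalings and left-out pools. Correlations between genes used exact permutation over all pairings of 7 pools (SciPy 1.17.1), adjusted over 12 pairs. Each pool is 1 sample, and since no label ties pools to females, days or batches, p-values measure only the spread between these pools.

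The members and gene lists were chosen with earlier results of these data known. The rule named the 15 highest genes by count and per kb, the marker genes, the highest members of each list, and the 5 most and 5 least variable genes of each of 4 level classes, the last without predicted models, clones and pseudogenes (116 genes). Its part on called genes gave none, and a few genes are not reported here. A further 42 genes, the 4 X and Y partner pairs, the promoter windows and motifs, the sums of mitochondrial genes with nuclear copies, the use of the longest transcript the list medians without single pools and the gaps on log2 values were chosen after values had been seen. Promoter windows are from the RefSeq table for GRCm38.p6. Lists without a result above had these values: the median variance over trend was 1.10 for blastocoel transport and junction genes, 1.14 for heat shock genes, 1.14 for integrated stress genes, 0.679 for immediate early genes, 0.609 for 3 hatching genes, 0.698 for 2 genes of the 2-cell stage, 1.47 for 7 abundant structured loci, 2.06 for 1 sperm gene and 1.75 for 3 fibroblast genes.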

Additional observations from a re-analysis of the deposited data

Results flagged for a closer look

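Among the 158 named genes, 13 (8.23%) had a single pool far from the other 6 on unlogged normalized counts. Chance gives about 1 in 20 groups, and the share over the 9033 genes kept for the spread was 11.6%. The distant pool was the highest in each of the 13, on a scale that stretches the upper end of a range, and it was replicate 8, the shallowest pool, in 6 of them. On log2(normalized count + 1) 9 of the 158 (5.70%) had a distant pool, highest in 5 and lowest in 4, against 7.13% of the 9033 genes. On both scales the named genes thus lay below the share of all genes kept. The number given for each gene is the gap to the next pool as a share of the whole range.

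In replicate 8 the polarity gene Scrib stood at 5317 normalized counts (gap 0.789), Trp53inp1 at 2272 (0.782), the mitotic kinesin genes Kif20a at 3782 (0.761) and Kif11 at 1997 (0.692), Ttn at 3440 (0.689) and the ribosomal protein gene Rpl4 at 15737 (0.570). The Kif11 values span 1636 to 1997, so that a distant pool there goes with a narrow range. In replicate 5, the deepest pool, the histone gene H2ac7 stood at 11508 (0.783) and Lars2 at 535768 (0.733).

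In replicate 7 Hand1 stood at 18.2 (0.745) and Csf1r, a receptor of macrophages and trophoblast, at 68.4 (0.692). Both are among the low genes of the table, where few reads carry each value. In replicate 1 the keratin gene Krt19 stood at 492 (0.664) and Txnip at 812 (0.576). In replicate 2 the trophectoderm factor Gata2 stood at 6437 (0.660).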

How the results depend on the processing

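DESeq2 marked 65 genes as more variable, against 0 with limma, and its outlier call has no lower side and was not run for single genes. With no filter on level 1 gene was called less variable, and the other 37 alternatives gave the same counts. Of the marker levels, 44 of 44 alternatives stayed within 1 SD. For named genes 2793 variances over trend kept their side of 1, where a change of side is counted only from values of at least 2 or at most 0.5.

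The exceptions were Psap at 0.843 without replicate 1 (leave-one-out values up to 2.86), H2ac7 at 0.138 without replicate 5 (up to 2.80), Ddx3y at 0.952 and Eif2s3y at 0.934 without replicate 7 (up to 2.68 and 2.61), Klf6 at 0.885 without replicate 6 (up to 2.48) and 0.686 in pools over 5 M reads, Krt19 at 0.952 without replicate 1 (up to 4.13), and Kif20a at 0.613 without replicate 8 (up to 4.49) and 0.765 in pools over 5 M reads.

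For the gene pair Cdx2 and Nanog r was -0.14 with RPM and -0.00798 with edgeR's TMM, and for the gene pair Nanog and Krt8 it was -0.0435 with RPM. Leaving out 1 pool gave r of -0.24 to 0.22 for Cdx2 and Nanog, 0.52 to 0.91 for Cdx2 and Krt8, -0.20 to 0.46 for Nanog and Gata6, -0.23 to 0.48 for Nanog and Krt8, -0.0936 to 0.41 for Gata6 and Krt8, 0.89 to 0.99 for Ddx3y and Eif2s3y and 0.73 to 0.82 for Kdm5d and Uty. It gave 0.60 to 0.94 for Cdx2 and Gata6. Ddx3y had 0.35 to 0.72 with Kdm5d and 0.13 to 0.90 with Uty. Eif2s3y had 0.32 to 0.70 with Kdm5d and 0.15 to 0.92 with Uty. Over all alternatives, a pair that had not passed came to pass in 2 fits, and a pair that had passed no longer did in 4. The cause of these changes was not tested.

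Across genes, the variance over trend in pools over 5 M reads had a Spearman rho of 0.81 with that in all 7 pools, with 107 of the 200 most variable genes shared. Without replicate 8 rho was 0.89 with 130 shared. Genes of low geometric mean pass the filter only through a high pool, so the trend is raised at its low end. No paired analysis was possible because no groups were compared.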
